A study of Mus musculus with 6 samples.

Results

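White-cell and platelet miRNAs were followed in exosomes pelleted from mouse serum. Exosomes are small vesicles that cells shed into blood, and miRNAs are short RNAs that pair with mRNAs through a seed near their 5′ end. The members were 8 mature miRNAs picked by name, and all 8 were found among the 1982 miRNAs listed in the deposited counts. They were mmu-miR-223-3p, mmu-miR-142a-5p, mmu-miR-142a-3p, mmu-miR-150-5p, mmu-miR-155-5p, mmu-miR-146a-5p, mmu-miR-146b-5p and mmu-miR-342-3p. The question was whether a single session of Acu/LFES, needle acupuncture with electrical pulses of low frequency, was followed by a different level of these miRNAs in serum exosomes. All 6 mice were male C57BL/6 mice of 3 months. The 3 Acu/LFES mice (mice 4, 5 and 6) had current through hindlimb needles for 30 min, and the 3 sham mice (mice 1, 2 and 3) were needled beside these points and received no current. Mice were restrained and awake in the study's protocol, and serum was taken by heart puncture, so restraint, needling and clotting of the blood belong to both groups. The labels give the tissue only as exosomes from blood, and miRNA counts hold no marker that could check this. The vesicles were not sorted by the cell that released them, so fewer vesicles from a cell type and less miRNA per vesicle cannot be told apart.

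These miRNAs are known for their work in blood cells. miR-223 marks neutrophils, monocytes and platelets and tunes their maturation, and miR-142 is made in nearly every lineage that descends from the blood stem cell. miR-150 is a miRNA of mature lymphocytes, miR-155 is switched on in activated lymphocytes and macrophages, and miR-146a is induced by NF-κB. Both miR-146a and miR-146b dampen NF-κB by targeting the signalling adaptors Traf6 and Irak1. miR-342 is transcribed with its host gene Evl and is found in lymphoid and myeloid cells.

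The mature sequences show which members can be told apart and which bind alike. They are printed 5′ to 3′ from RefSeq (GRCm38.p6), which held 7 of the 8 members, with the seed (bases 2 to 8) in capitals.
mmu-miR-223-3p: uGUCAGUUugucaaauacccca
mmu-miR-142a-5p: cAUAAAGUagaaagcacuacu
mmu-miR-142a-3p: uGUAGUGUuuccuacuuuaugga
mmu-miR-155-5p: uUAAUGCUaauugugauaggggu
mmu-miR-146a-5p: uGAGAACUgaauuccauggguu
mmu-miR-146b-5p: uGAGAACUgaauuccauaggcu
mmu-miR-342-3p: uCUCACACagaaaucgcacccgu

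miR-146a-5p and miR-146b-5p share a seed and differ only at G18A and U21C, counted from 1 at the 5′ end with the base of miR-146a-5p written before the position. The other 5 sequences have seeds of their own, which no other counted miRNA with a RefSeq sequence shares. The nearest counted miRNA was 2 edits away for the miR-146 pair, 4 edits away for miR-142a-5p (miR-3964, with at most 2 counts in a mouse), and at least 8 edits away for the rest. Reads could therefore be shared within the miR-146 pair if the authors' counting allowed 2 mismatches, which is not given in the sources used here. The members are 21 to 23 bases long, so levels are compared as counts without division by length. Of the 7 sequences, 6 begin with U, against 45.9% of the 218 tested miRNAs with a RefSeq sequence, and their GC content had a median of 40.9% against 47.8%.

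The members lie apart in the genome (GENCODE M21, GRCm38). Mir223 is on chromosome X from 96242817 to 96242926, inside an exon of the noncoding gene F630028O10Rik. Mir142 is on chromosome 11 from 87756864 to 87756927, within an intron of Mir142hg, a noncoding gene, and Mir142b lies over it on the other strand. Mir146 is on chromosome 11 from 43374397 to 43374461 and Mir150 on chromosome 7 from 45121757 to 45121821, and neither overlaps another annotated gene. Mir155 is on chromosome 16 from 84714140 to 84714204, within an exon of Mir155hg, a noncoding gene. Mir146b is on chromosome 19 from 46342762 to 46342870, inside Mfsd13a (intron), and Mir342 is on chromosome 12 from 108658620 to 108658718, inside Evl (intron).

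The libraries held between 391708 and 1504137 counts. miR-486a-5p and miR-486b-5p, red-cell miRNAs listed with identical counts, took between 61.7% and 74.0% of the counts in 5 mice and 29.2% in Acu/LFES mouse 6. Both rows enter the percent and the total, so these are shares of listed counts and not of distinct reads. Values are given as CPM, counts over the library size in units of 1e+06, the library size being multiplied by edgeR's TMM factor, which was 2.12 in mouse 6 and between 0.65 and 1.11 in the others. A miRNA at 3 counts, the smallest number taken as a detection, stood at 1.80 CPM in mouse 4 and at 9.91 CPM in mouse 3. These limits cover counting error only. CPM are relative to the library and do not give the amount of a miRNA in a volume of serum. The paper reports a higher concentration of serum exosomes after Acu/LFES, which CPM do not take into account.

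No member passed a test of difference between sham and Acu/LFES mice. All 8 members passed edgeR's default filter on low counts and were among the 259 miRNAs tested by its quasi-likelihood test. After Benjamini-Hochberg adjustment over these, 0 of 8 members had a p under 0.05, as did 0 of all miRNAs tested (0%), and the smallest adjusted p of a member was 0.715. At an unadjusted p under 0.05 there were 0 of 8 members against 8.88% of all miRNAs tested (5.79% higher and 3.09% lower with Acu/LFES). By the Wald test of DESeq2 there were 0 of 8 members before adjustment and 0 of the 7 that it gave an adjusted p (all but miR-142a-3p). Over all 259 miRNAs tested these shares were 11.2% and 3.47%, and the 259 include miRNAs without an adjusted p. The sham and Acu/LFES mice overlapped in each of the 8 members. Over all miRNAs tested the groups did not overlap in 17% (8.88% with every Acu/LFES mouse higher). With 8 members, a count of 0 is not set apart from these shares. The median log2 fold change of Acu/LFES over sham was -0.39 over the members and 0.05 over all miRNAs tested. With 3 mice in each group the intervals were wide, and they are given with each member.

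**Figure D1:**
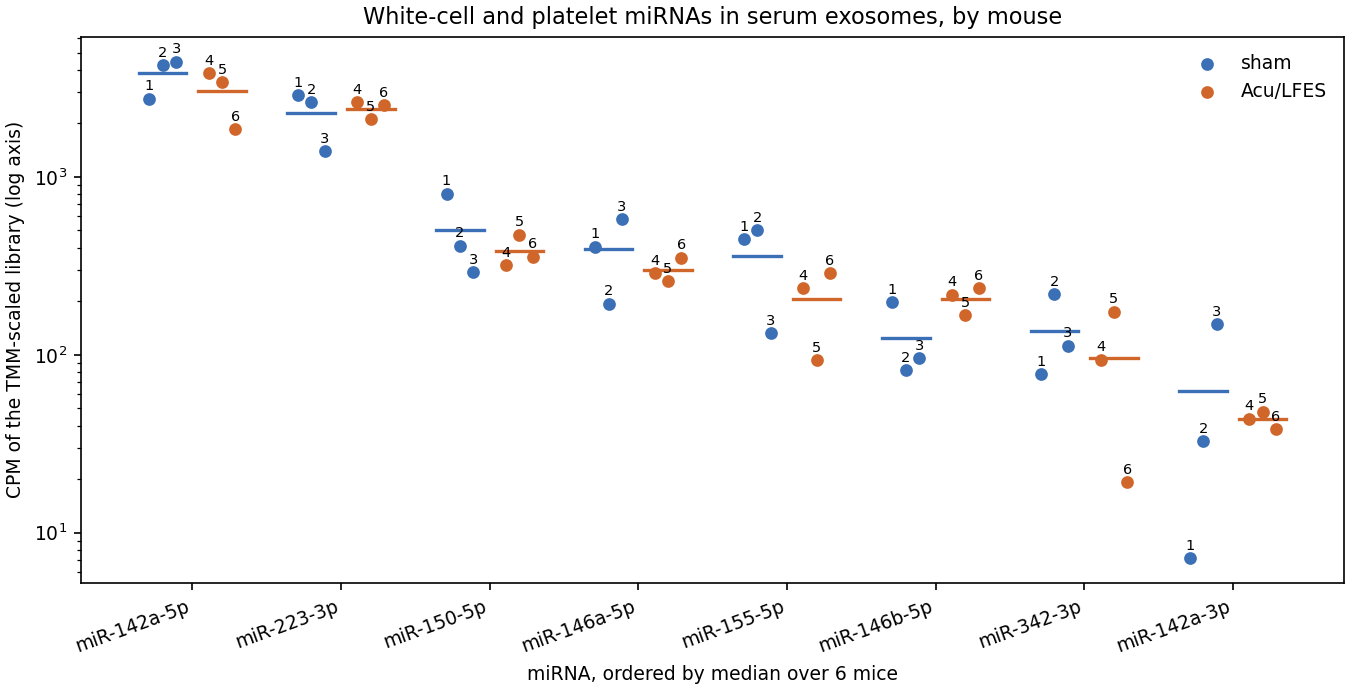
Level of each of the 8 miRNAs in each mouse, as CPM of the TMM-scaled library on a log axis, with sham mice in blue, Acu/LFES mice in orange, the mouse number above each point and a bar at the group mean. The groups overlap in all 8 miRNAs, and the widest spread is that of miR-142a-3p in the sham mice, from 7.21 to 149 CPM.

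miR-142a-5p and miR-223-3p were the most counted members and together made up between 74.4% and 84.3% of the members' counts in a mouse. Ordered by their median over the 6 mice, the levels were 3610 CPM for miR-142a-5p, 2573 CPM for miR-223-3p, 383 CPM for miR-150-5p, 319 CPM for miR-146a-5p, 262 CPM for miR-155-5p, 182 CPM for miR-146b-5p, 103 CPM for miR-342-3p and 41.0 CPM for miR-142a-3p. Only the step from miR-223-3p to miR-150-5p held in 6 of 6 mice, with a log2 difference in level of 2.47 ± 0.46 (SD over mice). miR-142a-5p was above miR-223-3p in 4 of 6 mice (0.52 ± 0.73). Each of the lower neighbours kept its order in 3 to 5 of 6 mice, by a log2 difference smaller than its SD, so neighbours in this order could not be told apart. Members farther apart kept their order in counts, since miR-150-5p was above miR-342-3p and above miR-142a-3p in 6 of 6 mice. Whether different miRNAs are recovered equally in a library was not tested, so the order is one of counts.

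miR-223-3p, the neutrophil, monocyte and platelet miRNA, was 2879, 2627 and 1391 CPM in sham and 2635, 2102 and 2520 CPM in Acu/LFES mice. Sham mouse 3 was the lowest of all, and the Acu/LFES mice lay within the sham range. The log2 fold change was 0.07 (standard error 0.29, 95% interval from -0.57 to 0.71, adjusted p = 0.967 in edgeR). This was the narrowest interval of the members, and it leaves room for a change of up to 0.71 on the log2 scale.

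miR-142a-5p was 2755, 4255 and 4448 CPM in sham and 3818, 3402 and 1862 CPM in Acu/LFES mice. Acu/LFES mouse 6 was the lowest, and the other 2 Acu/LFES mice lay between sham mice 1 and 2. The log2 fold change was -0.33 (standard error 0.31, 95% interval from -1.03 to 0.36, adjusted p = 0.799 in edgeR), and it was -0.03 without mouse 6.

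The other arm of the same hairpin, miR-142a-3p, was the least counted member and the most uneven. The hairpin is printed in RefSeq's sequence (GRCm38.p6, plus strand) with the 5p and the 3p arm in capitals, because both of its arms are members.
Mir142: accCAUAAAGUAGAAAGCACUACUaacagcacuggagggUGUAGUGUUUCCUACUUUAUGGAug

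miR-142a-3p had 5, 14 and 45 counts in sham and 73, 23 and 42 counts in Acu/LFES mice. As levels these were 7.21, 32.7 and 149 CPM in sham and 43.7, 47.8 and 38.3 CPM in Acu/LFES mice. The Acu/LFES mice were close together, within 1.25-fold, while the sham mice spread over 20.6-fold with all Acu/LFES mice between them. Counting error did not cover that spread, since the exact Poisson 95% intervals went from 2.34 to 16.8 CPM in mouse 1 and from 108 to 199 CPM in mouse 3. The log2 fold change was -0.51 (standard error 0.98, 95% interval from -2.69 to 1.68, adjusted p = 0.924 in edgeR), and it turned to 1.20 without sham mouse 3.

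The ratio of the arms within a library needs no scaling between mice. miR-142a-5p had 382, 130 and 29.9 times the counts of miR-142a-3p in sham and 87.4, 71.1 and 48.6 times in Acu/LFES mice. The 5p arm was the more counted in every mouse, and the factor varied more among sham mice than between the groups. The log2 ratio was 6.84 ± 1.85 in sham and 6.07 ± 0.43 under Acu/LFES (± is the SD over 3 mice, two-sided exact permutation test, p = 0.6). It was one of 8 ratios with counts of both miRNAs in every mouse, out of 14 that were set, and its p adjusted over the 8 was 0.9. The smallest p that 3 mice against 3 allow is 0.1.

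**Figure D2:**
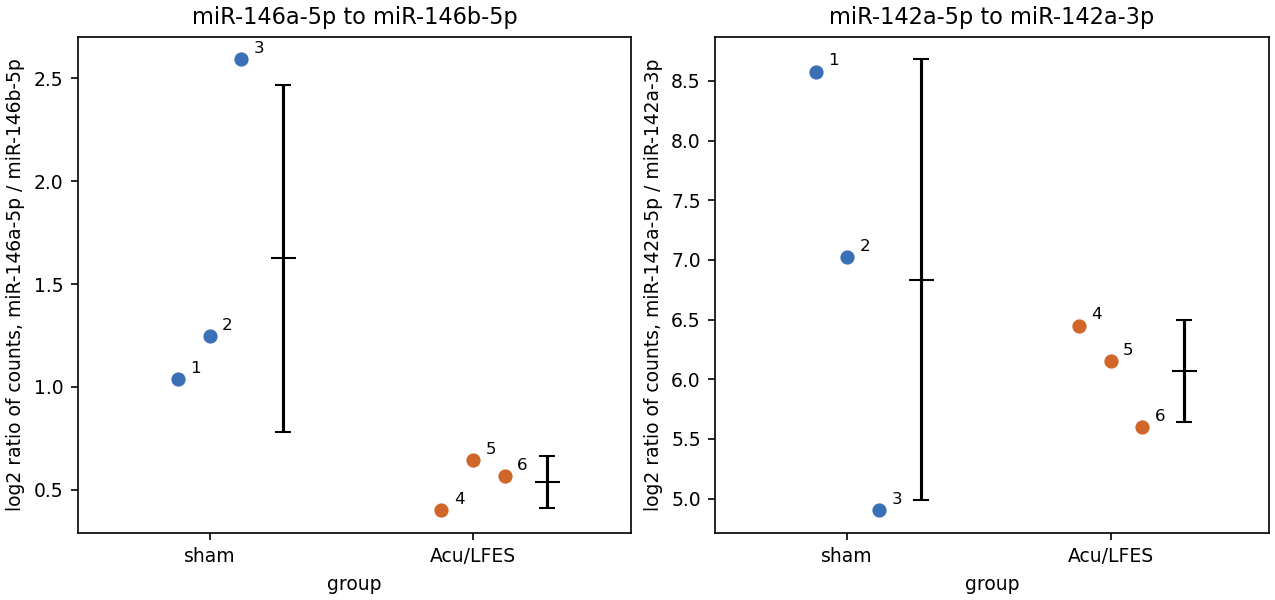
Log2 ratio of counts within each library for miR-146a-5p to miR-146b-5p (left) and miR-142a-5p to miR-142a-3p (right), by mouse, with the group mean and SD in black. On the left the 3 Acu/LFES mice lie between 0.40 and 0.64, under the 3 sham mice, which lie between 1.04 and 2.59, and on the right the groups overlap.

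The partner arms of the other hairpins were rare. miR-223-5p had 30, 23 and 0 counts in sham and 100, 4 and 61 in Acu/LFES mice, at most 2.22% of the hairpin's counts (Wilson 95% interval from 1.83% to 2.69% in mouse 4). The 0 in mouse 3 was found beside 421 counts of miR-223-3p. miR-150-3p had at most 7 counts in a mouse, miR-155-3p had 1 count and miR-146a-3p had 3 counts in all, and miR-146b-3p was at 0 in every mouse. So was miR-142b, which is no partner arm but comes from the gene on the strand opposite Mir142. miR-342-5p was the exception, with 12, 1 and 0 counts in sham and 34, 0 and 18 in Acu/LFES mice. In mouse 6 it made up 46.2% of the hairpin's counts (Wilson 95% interval from 31.6% to 61.4%), beside 21 counts of miR-342-3p. Of these partner arms and miR-142b, only miR-223-5p and miR-342-5p could be tested, with log2 fold changes of 0.34 (standard error 1.16) and 0.80 (standard error 1.35) and adjusted p of 0.963 and 0.904 in edgeR.

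The lymphocyte miRNA miR-150-5p was 804, 411 and 291 CPM in sham and 319, 474 and 356 CPM in Acu/LFES mice. Sham mouse 1 stood above the rest, and the Acu/LFES mice lay inside the sham range. The log2 fold change was -0.40 (standard error 0.39, 95% interval from -1.27 to 0.48, adjusted p = 0.799 in edgeR), and it was 0.16 without sham mouse 1.

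Myeloid and lymphocyte members were also set against each other within a library. miR-223-3p had 3.58, 6.40 and 4.78 times the counts of miR-150-5p in sham and 8.26, 4.43 and 7.08 times in Acu/LFES mice. Mice 4 and 6 were the highest, and mouse 5 lay inside the sham range. The log2 ratio was 2.26 ± 0.42 in sham and 2.67 ± 0.47 under Acu/LFES (± is the SD over 3 mice, two-sided exact permutation test, p = 0.3, adjusted p = 0.9).

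Against miR-16-5p, a common serum reference that red cells also hold, the log2 ratio of miR-223-3p was -1.80 ± 0.58 in sham and -1.78 ± 0.22 under Acu/LFES (± is the SD over 3 mice, two-sided exact permutation test, p = 0.9). That of miR-150-5p was -4.06 ± 0.80 in sham and -4.45 ± 0.67 in Acu/LFES mice (same exact permutation test, p = 0.6). That of miR-142a-3p was -7.86 ± 2.15 in sham and -7.58 ± 0.46 in Acu/LFES mice (same exact permutation test, p = 0.8). For each of these the groups overlapped. The 2 ratios that join miR-142a-3p to miR-223-3p and to miR-150-5p also overlapped between the groups (same exact permutation test, p = 0.8 and 0.7).

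miR-155-5p, the miRNA of activated lymphocytes and macrophages, was 445, 504 and 132 CPM in sham and 237, 93.6 and 287 CPM in Acu/LFES mice. Sham mice 1 and 2 were above every Acu/LFES mouse, and sham mouse 3 was among the lowest. The log2 fold change was -0.80, the most negative of the members (standard error 0.55, 95% interval from -2.03 to 0.42, adjusted p = 0.761 in edgeR). With a mouse left out it ran from -0.42 (without Acu/LFES mouse 5) to -1.15 (without sham mouse 3, with an unadjusted p of 0.0336 and an adjusted p of 0.581 in edgeR), and it was -0.48 without sham mouse 2.

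The miR-146 pair, brakes on NF-κB signalling, had log2 fold changes of opposite sign, neither past the test. miR-146a-5p was 405, 194 and 578 CPM in sham and 287, 260 and 351 CPM in Acu/LFES mice, with the Acu/LFES mice inside the sham range. Its log2 fold change was -0.39 (standard error 0.40, 95% interval from -1.29 to 0.52, adjusted p = 0.799 in edgeR), and it was 0.01 without sham mouse 3.

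miR-146b-5p was 198, 81.6 and 95.8 CPM in sham and 218, 166 and 237 CPM in Acu/LFES mice. Acu/LFES mice 4 and 6 were above all sham mice, and mouse 5 was under sham mouse 1. Its log2 fold change was 0.72 (standard error 0.46, 95% interval from -0.30 to 1.74, adjusted p = 0.715 in edgeR). With a mouse left out it ran from 0.49 (without sham mouse 2) to 1.26 (without sham mouse 1, with an unadjusted p of 0.0252 and an adjusted p of 0.240 in edgeR).

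Within a library, miR-146a-5p had 2.05, 2.37 and 6.03 times the counts of miR-146b-5p in sham and 1.32, 1.56 and 1.48 times in Acu/LFES mice. Every Acu/LFES mouse was below every sham mouse, and sham mouse 3 was the farthest away. The log2 ratio was 1.63 ± 0.84 in sham and 0.54 ± 0.13 under Acu/LFES (± is the SD over 3 mice), a difference of -1.09 (exact permutation test, two-sided, with p = 0.1 as the lowest value these mice allow and 0.8 after adjustment over the 8 ratios). It was the 1 of 8 ratios whose groups did not overlap, and the difference was -0.60 without sham mouse 3. The levels of single miRNAs did not overlap between the groups in 17% of all miRNAs tested. A count of 1 in 8 ratios is not set apart from that share. The lowest count behind it was 29 for miR-146b-5p, in sham mouse 3.

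miR-342-3p was 77.8, 219 and 112 CPM in sham and 94.0, 175 and 19.2 CPM in Acu/LFES mice. Mouse 6 was the lowest and mice 2 and 5 were the highest, 1 in each group. The log2 fold change was -0.52 (standard error 0.75, 95% interval from -2.20 to 1.16, adjusted p = 0.877 in edgeR), and it was 0.04 without mouse 6.

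**Figure D3:**
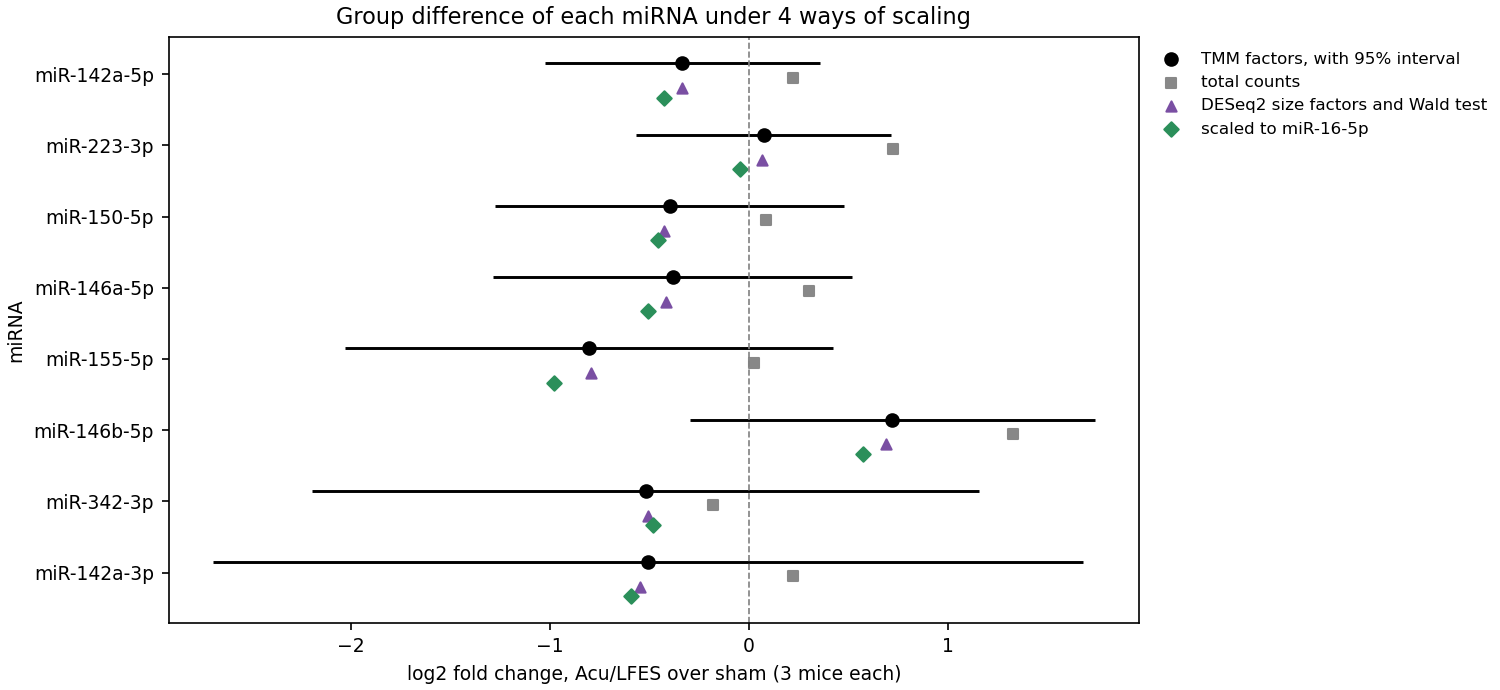
Log2 fold change of Acu/LFES over sham for each miRNA (3 mice each), with edgeR's TMM factors and their 95% interval in black, and with total counts, DESeq2 or scaling to miR-16-5p as coloured marks. Every interval crosses 0, and with total counts 7 of the 8 values are above 0 against 2 of 8 with TMM factors.

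Scaling by total counts changed the direction of 5 members. With TMM factors 6 of 8 log2 fold changes were below 0, and with total counts 1 of 8 was, that of miR-342-3p. Total counts also raised the median over all miRNAs tested from 0.05 to 0.71, and the members' median was then 0.22. A change of scaling moves all miRNAs of a library together, so a place against the median of all miRNAs is not tested anew by it. miR-146b-5p (0.72 with TMM factors and 1.32 with total counts) and, narrowly, miR-223-3p (0.07 and 0.72) were above the median of all miRNAs by both scalings, and the other 6 members were below it. No member changed direction with upper-quartile or RLE factors, with scaling to miR-103-3p, with totals without the miR-486 pair or with TMM factors computed without the members, and with scaling to miR-16-5p miR-223-3p alone did. miR-146b-5p was above 0 and miR-342-3p below 0 in each of the 11 other settings that kept all 6 mice.

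The miR-486 pair moved with some of these values, and the other red-cell markers did not all follow it. The summed share of the 8 members in a library was 0.840%, 0.542% and 0.556% for sham mice (Wilson 95% intervals from 0.818% to 0.863%, 0.524% to 0.560% and 0.533% to 0.580%). For Acu/LFES mice it was 0.850%, 0.512% and 1.20% (Wilson 95% intervals from 0.835% to 0.865%, 0.495% to 0.530% and 1.17% to 1.23%). These totals hold both rows of the miR-486 pair. With rows of identical counts taken once, the share was 1.22%, 0.861% and 0.865% in sham mice. In Acu/LFES mice it was then 1.24%, 0.811% and 1.42%. The highest share was in mouse 6, where the 8 red-cell markers took 32.1% of the counts, against 63.1% to 75.1% in the other mice. Nearly all of this was the miR-486 pair, so the percent describes that pair and is not a measure of red cells. In mouse 6 miR-451a (941 CPM) and miR-16-5p (8193 CPM) lay within the range of the other mice. miR-486a-3p (2153 CPM) and miR-486b-3p (2217 CPM) were lower in mouse 6 than in any other mouse. The log2 fold change was -0.66 for miR-486a-5p, -0.37 for miR-486a-3p and -0.36 for miR-486b-3p. It was 0.34 for miR-451a, 0.54 for miR-144-5p and 0.15 for miR-16-5p. None of these had an adjusted p under 0.05 in edgeR. miR-144-3p had 0 counts in every sham mouse and 3, 0 and 1 counts in Acu/LFES mice, too few to be tested. Without mouse 6 the members' share of all counts was 0.035 percentage points higher with Acu/LFES than with sham, against 0.21 with it. Outside the miR-486 pair, the members took 2.20%, 2.08% and 1.93% in sham and 2.23%, 1.93% and 1.70% in Acu/LFES mice. Mouse 6 then had the lowest share, and the 6 mice lay within a narrow range. The group means were 2.07% ± 0.13 and 1.95% ± 0.27 (SD, n = 3 each).

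**Figure D4:**
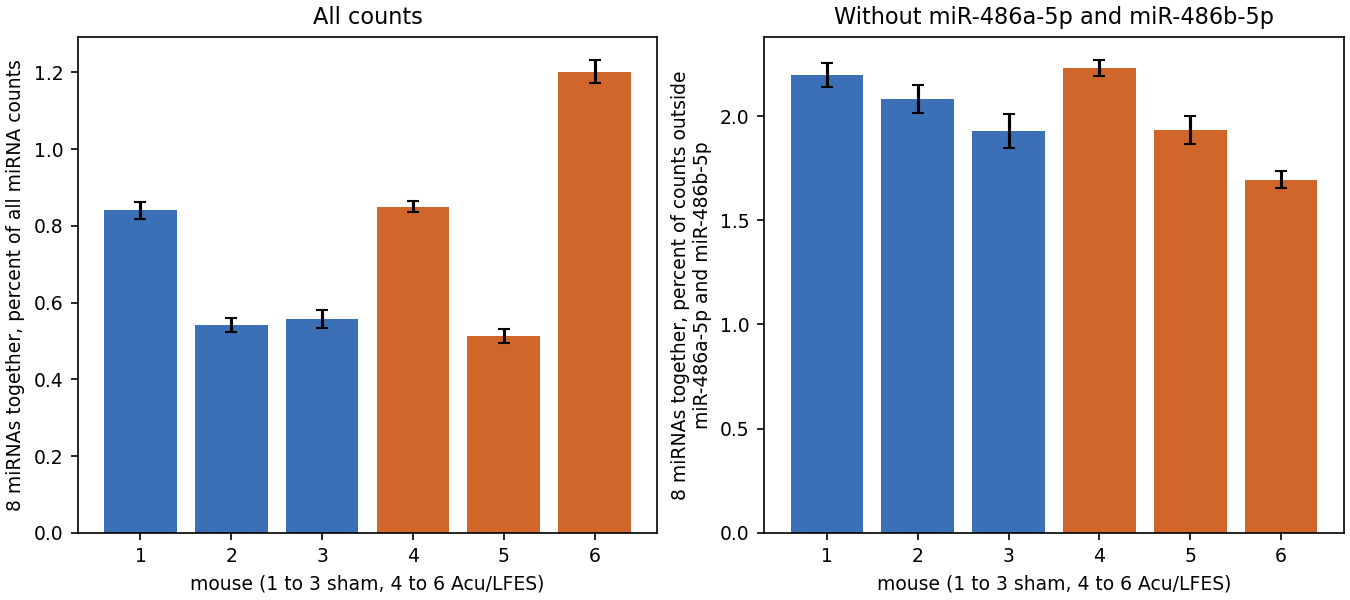
Percent of counts taken by the 8 miRNAs together in each mouse, out of all miRNA counts (left) and out of the counts that remain without the miR-486 pair (right), with Wilson 95% intervals for counting error and sham mice in blue. The total on the left holds both rows of the miR-486 pair, which have identical counts. Mouse 6 is the highest on the left, at 1.20%, and the lowest on the right, at 1.70%.

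The miRNAs whose pattern over the 6 mice was most like a member's were looked up among all tested miRNAs, by Pearson's r of log2 CPM with 0.5 added. The values of a mouse share its scaling, and 6 points from 259 candidates give high values easily, so r is a description. For miR-342-3p the nearest were miR-486a-5p and miR-486b-5p, both at r = 0.98. With total counts r of miR-342-3p with miR-486a-5p was 0.93. Without mouse 6 it was 0.91 with TMM factors and 0.64 with total counts. For miR-142a-5p they were miR-652-3p (r = 0.94) and miR-486a-5p (r = 0.91), but r with miR-486a-5p was -0.58 with total counts. Without mouse 6, r of miR-142a-5p with miR-486a-5p was 0.61 with TMM factors and -0.67 with total counts. With total counts and all 6 mice, every member but miR-342-3p had a negative r with miR-486a-5p, from -0.31 to -0.83. A miRNA that takes most of a library lowers the share of the others, so these signs depend on the scaling. No other member was above r = 0.19 with miR-486a-5p under TMM scaling with all 6 mice, and miR-146b-5p was at -0.72. Without mouse 6, miR-142a-3p was at 0.51 with TMM factors and 0.35 with total counts, and miR-146b-5p was at -0.85 with TMM factors. What the miR-486 pair contributes to these values was not tested.

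For miR-223-3p the nearest were its own partner arm miR-223-5p (r = 0.98) and miR-361-3p (0.97). For miR-155-5p they were miR-126a-3p (0.93), a miRNA of endothelium and platelets, and miR-30d-5p (0.87). For miR-150-5p they were miR-3971 (0.92) and miR-125a-5p (0.83), and for miR-142a-3p miR-16-2-3p (0.93) and miR-433-3p (0.92). For miR-146a-5p they were miR-669c-5p (0.94) and miR-127-3p (0.93), and for miR-146b-5p miR-300-3p (0.99) and miR-669a-5p (0.99), both of which were at 0 in sham mice 2 and 3. Over all pairs of members r went from -0.89, for miR-142a-3p and miR-150-5p, to 0.87, for miR-142a-5p and miR-342-3p. The next most negative were miR-223-3p with miR-142a-3p (-0.84) and miR-142a-5p with miR-146b-5p (-0.74). The arms of miR-142 had r = 0.44 and the miR-146 pair had 0.10.

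A wider list of 15 miRNAs that white cells or platelets also hold was read beside the members. Of the 13 that could be tested, 0 had an adjusted p under 0.05 in edgeR. Before adjustment 2 were past that threshold with Acu/LFES higher and 0 with it lower, against 5.79% and 3.09% of all miRNAs tested. The groups did not overlap in 3 of the 13, all with Acu/LFES higher, against 8.88% of all miRNAs tested. With 13 miRNAs, counts of 2 and 3 are not set apart from these shares. The median log2 fold change was 0.41, against 0.05 over all miRNAs tested and -0.39 over the members. The list was chosen with earlier results of these data known, so these values are a description. The 2 called before adjustment were relatives of miR-181, a family known from lymphocyte development. miR-181a-5p was 1322, 970 and 1051 CPM in sham and 1934, 1503 and 1520 CPM in Acu/LFES mice, and the log2 fold change was 0.57 (SE 0.23, adjusted p = 0.518 in edgeR). miR-181d-5p was 110, 98.0 and 95.8 CPM in sham and 204, 237 and 173 CPM in Acu/LFES mice, and the log2 fold change was 1.01 (SE 0.40, adjusted p = 0.518 in edgeR). In both, each Acu/LFES mouse was above each sham mouse, while their relative miR-181b-5p had a log2 fold change of 0.07 and overlapping groups. The most counted of the list, miR-92a-3p, miR-21a-5p and miR-24-3p, are made by many tissues, and their groups overlapped. miR-17-5p was the third of the list whose groups did not overlap, again with the Acu/LFES mice higher. Of the endothelial pair miR-126a-3p and miR-126a-5p, 2 liver miRNAs and 3 muscle miRNAs that could be tested, 0 had an unadjusted p under 0.05 in edgeR, though miR-126a-5p was lower in each Acu/LFES mouse than in each sham mouse (log2 fold change -0.41, unadjusted p = 0.0863, adjusted p = 0.568).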

How the data were processed

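Small RNA from serum exosomes of 6 mice was sequenced as 1 library per mouse in a single lane. The deposited values are raw counts of reads for each mature miRNA, made by the authors as whole numbers. The submitters' processing notes name cutadapt 1.6 and DESeq2 1.26.0. The aligner, counter, miRNA annotation and mismatches allowed are not given in the sources used here. Groups came from the treatment label. Mouse numbers are not shared between groups, and separate mice are replicates.

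After edgeR's default filter on low counts (version 4.0.16, R 4.3.3), TMM factors were computed and its quasi-likelihood test was run, with Benjamini-Hochberg adjustment over all 259 miRNAs tested and a threshold of 0.05. Standard errors came from the F statistic, and intervals from its total degrees of freedom. Alternatives were DESeq2 1.42.0, other library scalings, other filters, identical rows collapsed and leaving out each mouse. For ratios, an exact permutation test (two-sided, SciPy 1.17.1) was used. The code was tested on simulated data. The members, lists and tests were chosen with earlier results of these data known. Named miRNAs are the members, their partner arms, miR-142b, the 2 nearest patterns of each member, listed markers and 2 references. Figures were drawn with matplotlib 3.10.9.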

Additional observations from a re-analysis of the deposited data

How the results depend on the processing

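No paired analysis was possible because the groups share no mouse numbers. The number of members with an adjusted p under 0.05 was 0 in each of the 17 other settings, and at an unadjusted p under 0.05 it was 0 in the settings that kept all mice and 0 to 1 where a mouse was left out (1 without sham mouse 1, miR-146b-5p, and 1 without sham mouse 3, miR-155-5p). Of 87 log2 fold changes under other settings with all mice, 81 kept their direction and 6 reversed. With total counts they turned to 0.22 for miR-142a-3p, 0.22 for miR-142a-5p, 0.30 for miR-146a-5p, 0.083 for miR-150-5p and 0.024 for miR-155-5p, and scaled to miR-16-5p that of miR-223-3p turned to -0.045. Relative to the median of all miRNAs tested, which total counts moved from 0.05 to 0.71, the 5 members that reversed with total counts stayed below. That is not a separate result, because scaling moves all miRNAs of a library together. Where a mouse was left out, log2 fold changes ran from -1.05 to 1.20 for miR-142a-3p, from -0.72 to 0.015 for miR-146a-5p, from -0.66 to 0.16 for miR-150-5p, from -0.15 to 0.32 for miR-223-3p and from -1.20 to 0.041 for miR-342-3p, and kept their sign for miR-142a-5p (-0.53 to -0.03), miR-146b-5p (0.49 to 1.26) and miR-155-5p (-1.15 to -0.42). Of the differences in log2 ratio, 8 of 64 reversed, none of them with 0.5 or 1 count added. With a mouse left out the difference went from -1.73 to 0.10 for miR-142a-5p to miR-142a-3p, from -1.68 to 1.03 for miR-223-3p to miR-142a-3p, from -0.82 to 2.10 for miR-142a-3p to miR-150-5p, from -0.31 to 0.25 for miR-223-3p to miR-16-5p, from -0.77 to 1.38 for miR-142a-3p to miR-16-5p and from -0.75 to 0.050 for miR-150-5p to miR-16-5p. The difference for miR-146a-5p to miR-146b-5p stayed between -1.38 and -0.60. The members' share of counts was higher by 0.21 percentage points with Acu/LFES. This difference was 0.17 with identical rows collapsed and turned to -0.12 on totals without the miR-486 pair. With a mouse left out it went from 0.035 (without Acu/LFES mouse 6) to 0.379 (without Acu/LFES mouse 5). Over all miRNAs tested, edgeR called 23 of 259 at an unadjusted p under 0.05 (15 higher with Acu/LFES). Of the same 259 it called 23 with total counts (23 higher) and 26 with totals without the miR-486 pair (20 higher). Scaled to miR-16-5p it called 15 (5 higher), and scaled to miR-103-3p 7 (7 higher). Other filters, and leaving out a mouse, changed the number tested, so those counts are read against it. Without a filter edgeR called 53 of 954 (39 higher), and with at least 10 counts in every library 18 of 152 (9 higher). Without sham mouse 1 it called 48 of 303 (41 higher). After adjustment DESeq2 called 9 of 259 against 0 by edgeR. With at least 10 counts in every library, miR-142a-3p was not tested, and the counts of miR-142a-3p and miR-342-3p, as low as 5 and 21, limit what could be seen in them.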
